A study of Mus musculus with 9 samples.

Results

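The miR-148 and miR-152 family was measured in extracellular vesicles from mouse podocytes, epithelial cells whose foot processes cover the capillaries of the glomerulus and help to filter blood. Its 4 members here are miR-148a-3p, miR-148b-3p, miR-152-3p and miR-148a-5p, chosen by name, not by their values. They are 4 of the 1915 mouse miRNA identifiers in the deposited files, of which 479 were listed in at least 1 library and 361 were abundant enough to be tested. All 4 were among those 361, and the 3 members named 3p were among the 260 miRNAs listed in all 9 libraries.

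All 9 small RNA libraries came from 1 conditionally immortalized mouse podocyte line, grown without interferon-γ at 37 °C for 10 days on collagen in DMEM with 5% fetal bovine serum so that the cells differentiated. Cells then spent 48 h in 1 of 3 media, with 3 libraries each: normal glucose (5.3 mM), high glucose (30 mM), or mannitol (24.7 mM of this sugar alcohol, which matches the osmolarity of high glucose, added to 5.3 mM glucose). Vesicles were precipitated from the medium with the polymer reagent ExoQuick-TC, and no genotype differed between groups. The labels do not say that the serum was freed of vesicles. Copies of a miRNA carried in with serum cannot be told apart from those of the cells. The labels also do not say whether replicate libraries were grown apart, and every p-value therefore reflects a spread among libraries that may be technical.

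A miRNA binds messenger RNAs mainly through its seed, a short stretch near the 5′ end, and lowers the output of the messages it pairs with. Each miRNA is cut from a hairpin whose 2 arms, named 5p and 3p, pair with each other, and usually one arm is kept and the other degraded. The 3p members share a seed and are known to lower DNMT1, the enzyme that copies DNA methylation, while miR-148a-3p also lowers the LDL receptor and the cholesterol exporter ABCA1.

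The mature sequences show why these miRNAs form 1 family and how little separates them when reads are counted. They are given 5′ to 3′ from RefSeq (GRCm38.p6), in which 4 of 4 members were found, with the seed (bases 2 to 8) in capitals.
mmu-miR-148a-3p: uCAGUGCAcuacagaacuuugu
mmu-miR-148b-3p: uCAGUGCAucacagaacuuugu
mmu-miR-152-3p: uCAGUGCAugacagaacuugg
mmu-miR-148a-5p: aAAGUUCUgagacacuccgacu
mmu-miR-148b-5p: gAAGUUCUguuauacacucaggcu
mmu-miR-152-5p: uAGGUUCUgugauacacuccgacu

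The 3p members are identical over the seed, and no other of the 1738 mature miRNAs in the reference carries CAGUGCA at bases 2 to 8. Counted from 1 at the 5′ end, miR-148a-3p and miR-148b-3p differ by 2 substitutions over 22 bases, C9U and U10C. miR-148a-3p and miR-152-3p differ by 3 over 21 bases, C9U, U10G and U20G. miR-148b-3p and miR-152-3p differ by 2, C10G and U20G. The number of mismatches allowed in read assignment is not stated in any label or header. The size of any exchange of reads between these 3 therefore cannot be measured, nor its part in their levels, ratios and correlations. miR-148a-5p has another seed, AAGUUCU, which it shares with miR-148b-5p alone, while the miR-152-5p seed is AGGUUCU. The reverse complement of the miR-148a-5p seed, AGAACUU, lies at bases 13 to 19 of both miR-148a-3p and miR-148b-3p, on the other arm of the hairpin. The same 7 letters as the 3p seed stand 1 base earlier, at bases 1 to 7, in several miRNAs that are therefore outside the family. Of these, miR-130a-3p and miR-130b-3p had mean levels of 124 and 35.4 CPM (counts per 1000000 miRNA counts of the library).

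The hairpins show where the arms lie, with the 5p arm first and the 3p arm second in capitals.
Mir148a: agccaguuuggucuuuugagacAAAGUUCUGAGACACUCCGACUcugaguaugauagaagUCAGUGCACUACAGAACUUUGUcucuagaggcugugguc
Mir148b: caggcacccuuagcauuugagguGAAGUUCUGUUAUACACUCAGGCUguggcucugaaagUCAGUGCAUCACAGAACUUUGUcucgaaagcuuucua
Mir152: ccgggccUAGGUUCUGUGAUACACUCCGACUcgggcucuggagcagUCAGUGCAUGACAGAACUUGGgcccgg

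The 3 hairpins lie on different chromosomes of GRCm38: Mir148a at chr6:51269812-51269910 on the minus strand, Mir148b at chr15:103285125-103285221 on the plus strand and Mir152 at chr11:96850393-96850465 on the plus strand. In the GENCODE M21 annotation, Mir148b lies in intron 1 of 8 of Copz1 and Mir152 in intron 1 of 8 of Copz2, on the same strand as the host. These paralogous hosts encode zeta subunits of the COPI coat, which moves vesicles from the Golgi to the endoplasmic reticulum. Mir148a overlaps no other annotated gene, and its nearest protein-coding neighbour is Nfe2l3, 162760 bases away. Mir148b and Mir152 also have a gene of the Nfe2 transcription factor family as a neighbour, Nfe2 at 26722 bases and Nfe2l1 at 20425 bases.

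Total miRNA counts ran from 725211 in high glucose replicate 1 to 2553690 in high glucose replicate 3. The tables hold no count from 1 to 9, so a listed 0 stands for 0 to 9 reads. As a check of the cells, all 5 members of the podocyte-rich miR-30 family were listed in every group, with summed levels of 126420 to 140209 CPM in normal glucose, 106713 to 177083 CPM in mannitol and 149949 to 224982 CPM in high glucose.

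miR-148a-3p was among the most abundant vesicle miRNAs, between place 8 and place 18 in each library with a median place of 11. Its level was 15997, 27750 and 24559 CPM in normal glucose replicates 1, 2 and 3, 19408, 29273 and 19897 CPM in mannitol, and 26792, 23035 and 23769 CPM in high glucose. Normal glucose replicate 1 was the lowest library and mannitol replicate 2 the highest, and the high glucose libraries lay inside the range of each other group. The group means were 22768 ± 6078 CPM in normal glucose, 22859 ± 5560 in mannitol and 24532 ± 1991 in high glucose (SD, n = 3).

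miR-152-3p, whose mouse hairpin lies in the Copz2 intron, was the next most abundant member, at places 21 to 38. It stood at 7286, 6322 and 7255 CPM in normal glucose, 6329, 11127 and 5675 CPM in mannitol, and 6368, 9999 and 7919 CPM in high glucose. Replicate 2 was the highest library in both mannitol and high glucose, and all 3 groups overlapped. The means were 6954 ± 548, 7710 ± 2977 and 8095 ± 1822 CPM in that order (SD, n = 3).

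miR-148b-3p, whose mouse hairpin lies in the Copz1 intron, held places 52 to 69. It stood at 1522, 1523 and 1827 CPM in normal glucose, 1413, 2272 and 1476 CPM in mannitol, and 1560, 2199 and 2380 CPM in high glucose. High glucose replicates 2 and 3 were above every normal glucose library, while high glucose replicate 1 was below normal glucose replicate 3. The means were 1624 ± 176, 1720 ± 478 and 2046 ± 431 CPM (SD, n = 3).

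miR-148a-5p, the opposite arm of the miR-148a hairpin, was close to the lowest count the tables list. Its counts were 13, 11 and 17 in normal glucose, 12, 26 and 43 in mannitol, and 0, 12 and 44 in high glucose. On the CPM scale these were 8.44, 10.1 and 15.4 in normal glucose, 9.03, 16.4 and 18.9 in mannitol, and 0, 9.40 and 17.2 in high glucose. The listed 0 belongs to high glucose replicate 1, the shallowest library, where the 9 reads that can go unlisted are worth 12.4 CPM, above the levels of 4 libraries in which the arm was listed. That 0 therefore does not show a lower level.

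**Figure D1:**
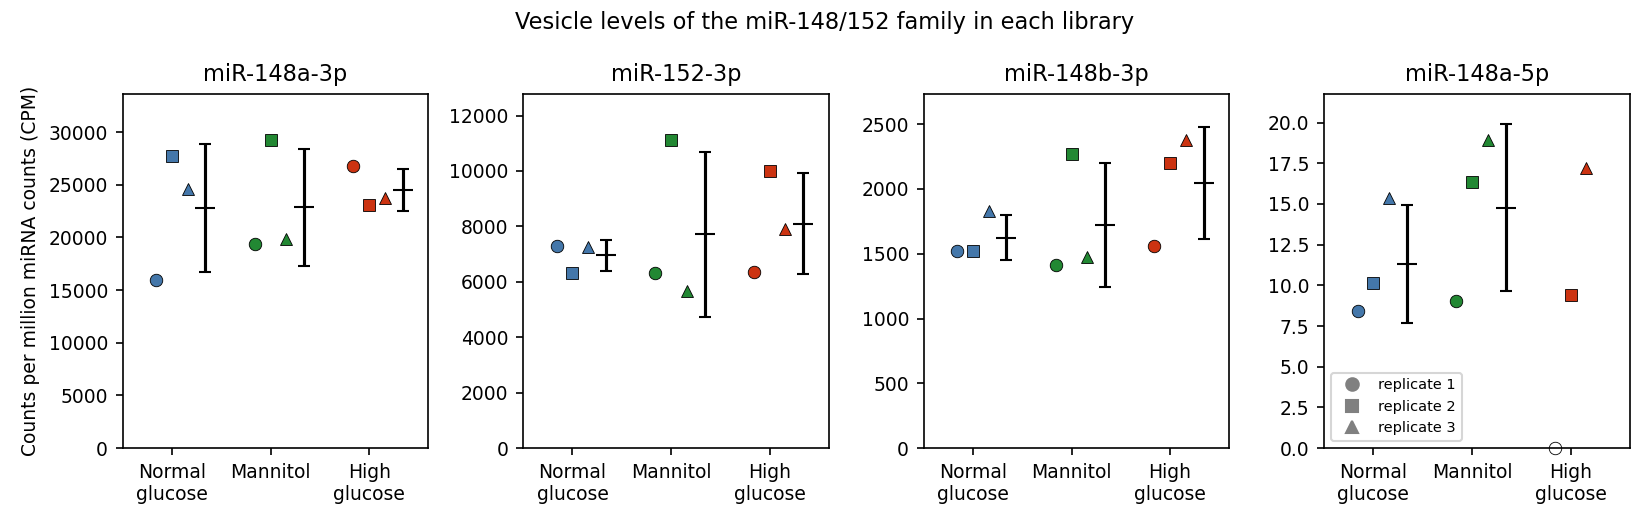
Level of each member (y axis, CPM, linear from 0, a separate scale in each panel) in the 9 libraries by treatment group (x axis), with one marker shape per replicate and the mean ± SD of the 3 libraries at the right of each group. The open marker is the listed 0 of miR-148a-5p in high glucose replicate 1 (0 to 9 reads), and no mean is drawn for that group. The libraries of the 3 groups overlap in every panel.

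The order miR-148a-3p, miR-152-3p, miR-148b-3p, miR-148a-5p held in 9 of 9 libraries, and no neighbours in it overlapped. The lowest miR-148a-3p library (15997 CPM) was above the highest miR-152-3p library (11127 CPM). The lowest miR-152-3p library (5675 CPM) was above the highest miR-148b-3p library (2380 CPM), and miR-148b-3p never came near the 18.9 CPM that miR-148a-5p reached. Counts of mature miRNAs do not scale with length, as the members are 21 or 22 bases long, but how well each sequence is ligated and amplified was not measured, so a ratio between members carries that unknown factor in every library.

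Of the other arms, miR-148b-5p was listed only in high glucose replicate 3, with 13 counts (5.09 CPM). miR-152-5p was listed in 5 of 9 libraries, with 15 and 14 counts in normal glucose replicates 1 and 3, 14 and 11 in mannitol replicates 2 and 3, and 18 in high glucose replicate 3. Each hairpin was thus represented almost wholly by its 3p arm in these vesicles. For miR-148a, the arm with enough counts to quantify, the 5p share of both arms ran from 0.0364% (95% exact binomial interval 0.0182 to 0.0652) in normal glucose replicate 2 to 0.0951% (0.0689 to 0.128) in mannitol replicate 3. These intervals cover counting error only, since reads without molecular identifiers are not independent molecules. The 3p to 5p ratio lay between 1050 and 2743 in the 8 libraries that list both arms, and in high glucose replicate 1 it was at least 2159, the value with 9 unlisted reads.

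The family's summed level was 2.48, 3.56 and 3.37% of miRNA counts in normal glucose, 2.72, 4.27 and 2.71% in mannitol, and 3.47, 3.52 and 3.41% in high glucose. The high glucose libraries lay within 1.03-fold of each other, against 1.44-fold in normal glucose and 1.58-fold in mannitol, and within the range of both other groups. The high glucose coefficient of variation was 1.67% for the sum but 8.12% for miR-148a-3p, 21.1% for miR-148b-3p and 22.5% for miR-152-3p. On this scale high glucose replicates 2 and 3 held less miR-148a-3p but more of the others than replicate 1. With edgeR's TMM scaling, replicate 1 was instead the lowest of its group in miR-148a-3p (25134), miR-148b-3p (1463) and miR-152-3p (5974). The closeness of the sums therefore depends on the scaling. For the 260 miRNAs listed in every library, the median coefficient of variation in high glucose was 22.6%, and 7.31% of them varied less than miR-148a-3p. That share was 51.9% in normal glucose and 33.1% in mannitol. The share that varied less than miR-152-3p was 5.77% in normal glucose, 65.8% in mannitol and 48.8% in high glucose. For miR-148b-3p it was 9.62%, 43.1% and 45.8% in that order. Whether spread differed between groups was not tested.

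Over the 9 libraries miR-148a-3p made up 71.2 ± 4.72% of the family's counts, miR-152-3p 23.2 ± 4.09% and miR-148b-3p 5.50 ± 0.850% (SD, n = 9). The ratio of miR-152-3p to miR-148b-3p varied least, from 3.33 in high glucose replicate 3 to 4.90 in mannitol replicate 2. The ratio of miR-148a-3p to miR-152-3p spanned 1.999-fold, from 2.20 in normal glucose replicate 1 to 4.39 in normal glucose replicate 2. Both ends of that range were thus in the same treatment group. The ratio of miR-148a-3p to miR-148b-3p spanned 1.82-fold, from 9.99 in high glucose replicate 3 to 18.2 in normal glucose replicate 2.

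**Figure D2:**
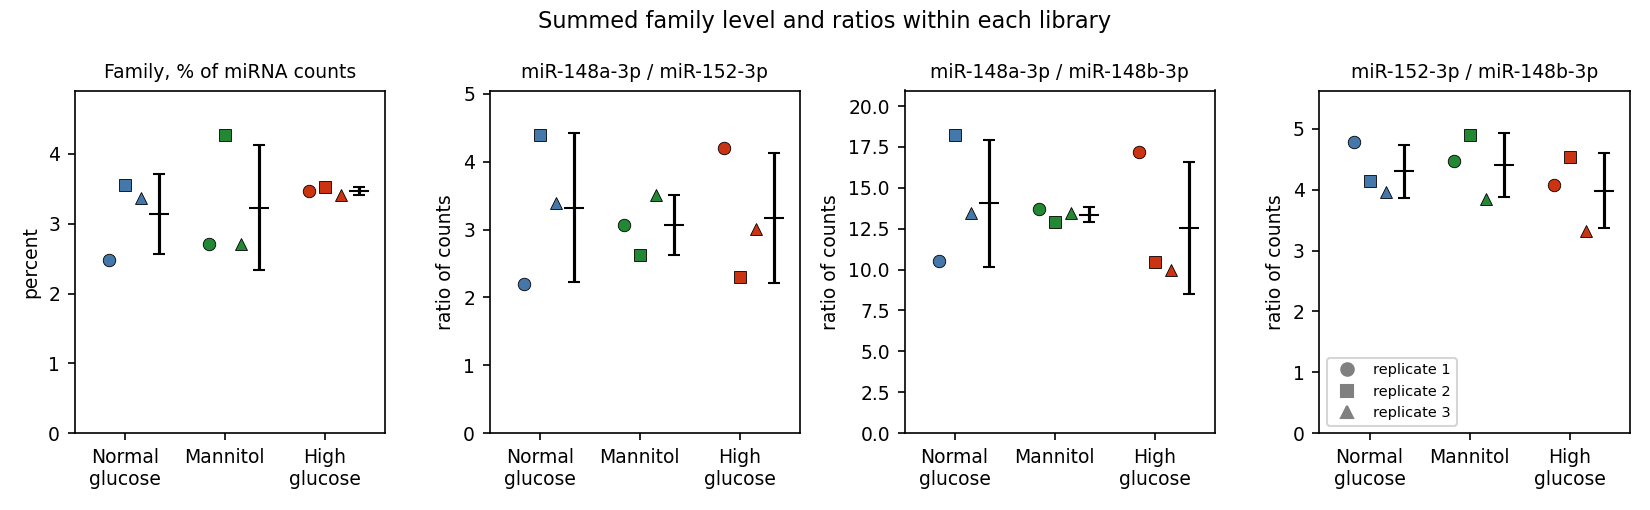
Summed family level (left panel, percent of miRNA counts) and 3 ratios of counts between members within each library (other panels), on linear axes from 0, by treatment group (x axis), with one marker shape per replicate and the mean ± SD of 3 libraries at the right. The high glucose sums lie between 3.41 and 3.52%, and the ratio of miR-152-3p to miR-148b-3p stays between 3.33 and 4.90 in all libraries.

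The ratio of miR-148a-3p to another member did not differ between treatments by more than the spread between libraries. In log2 units, the mean ratio of miR-148a-3p to miR-148b-3p was 3.60 ± 0.43 in high glucose, 3.74 ± 0.05 in mannitol and 3.78 ± 0.40 in normal glucose (SD, n = 3). Its ratio to miR-152-3p was 1.62 ± 0.44, 1.61 ± 0.21 and 1.68 ± 0.50 in the same order. Two-sided exact permutation tests of 3 ratios in 3 comparisons gave p from 0.4 to 1, and 1.0 for all 9 after Benjamini-Hochberg adjustment, in a design of 3 against 3 libraries whose smallest possible p is 0.1. The 3p to 5p ratio of miR-148a was 1.05 higher in high glucose than in normal glucose in log2 units with 1 count added to each arm (p = 0.7, exact permutation test), and −0.06 with the listed 0 set to 9 reads, so this difference rests on high glucose replicate 1.

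The comparison of high glucose with normal glucose asks how the vesicle miRNAs respond to glucose together with the osmolarity it adds. The 3p members were 0.17 to 0.45 higher on the log2 scale, and none passed the test. miR-148b-3p had the largest value, 0.45 ± 0.32 (SE; 95% interval −0.24 to 1.14), and on unscaled CPM was higher in 8 of 9 pairs of libraries. On TMM-scaled CPM, the scale nearer to the fit, high glucose replicate 1 (1463) was below every normal glucose library (1468, 1720 and 1641). miR-152-3p had 0.34 ± 0.33 (−0.37 to 1.05) and miR-148a-3p 0.17 ± 0.30 (−0.47 to 0.82). miR-148a-5p had −0.14 ± 1.28, a value that turns to 0.38 when the listed zeros are set to 9 reads. In edgeR's quasi-likelihood test, with Benjamini-Hochberg adjustment over all 361 miRNAs, each member's adjusted p was 0.995. In this comparison 0 of 4 members were called, as were 0% of all miRNAs tested, while 10 of 361 (2.77%) had an unadjusted p under 0.05, none of them members. No member's groups failed to overlap, against 9.42% of the miRNAs tested. The direction of miR-148a-3p rests on normal glucose replicate 1, since its value was −0.044 without that library, while without normal glucose replicate 2 it was 0.43. The value of miR-152-3p fell to 0.11 without high glucose replicate 2.

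The comparison of high glucose with mannitol asks for the part that osmolarity does not share. The 3p members were again higher on the log2 scale, by 0.22 ± 0.30 for miR-148a-3p (SE; 95% interval −0.42 to 0.87), 0.22 ± 0.33 for miR-152-3p (−0.50 to 0.93) and 0.40 ± 0.32 for miR-148b-3p (−0.29 to 1.08). miR-148a-5p had −0.51 ± 1.27, and −0.045 with the listed zeros set to 9 reads. Adjusted p ran from 0.801 to 0.987 in edgeR's quasi-likelihood test, so 0 of 4 members were called, beside 0% of the miRNAs tested, and 0 of 4 had groups that did not overlap, beside 10.2%. At an unadjusted p under 0.05 there were 19 miRNAs (5.26%), again no member. On unscaled CPM, mannitol replicate 2 had the most miR-148a-3p and miR-152-3p of all libraries and the most miR-148b-3p of its group. On TMM-scaled CPM, normal glucose replicate 2 had more miR-148a-3p (31342 against 30787). Mannitol replicate 2 weighs on this comparison. Without it 96 of 372 miRNAs tested had an unadjusted edgeR p under 0.05, miR-148b-3p and miR-152-3p among them, so the change was not particular to the family. The log2 differences were then 0.56 for miR-148a-3p, 0.77 for miR-148b-3p and 0.71 for miR-152-3p, with edgeR adjusted p of 0.214, 0.120 and 0.128. Leaving out either other mannitol library moved them towards 0 instead. Without mannitol replicate 1 the same members had 0.049, 0.21 and 0.022, and without mannitol replicate 3 they had 0.13, 0.30 and 0.033. Without high glucose replicate 2 miR-152-3p had −0.039.

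Mannitol against normal glucose, at equal glucose, addresses osmolarity, and with TMM scaling its values for the 3p members were the smallest of the 3 comparisons. On the log2 scale miR-148a-3p had −0.05 ± 0.30 (SE; 95% interval −0.70 to 0.60), miR-148b-3p 0.05 ± 0.32 (−0.63 to 0.74) and miR-152-3p 0.13 ± 0.33 (−0.59 to 0.84). miR-148a-5p had 0.37 ± 1.27. Every member's adjusted p was 0.9996 in edgeR's quasi-likelihood test, with 0 of 4 called beside 0% of all miRNAs, and 0 of 4 had groups that did not overlap beside 3.32%. At an unadjusted p under 0.05 there were 5 miRNAs (1.39%). Without mannitol replicate 2 all 3p members were lower in mannitol. The values were −0.29 for miR-148a-3p, −0.22 for miR-148b-3p and −0.27 for miR-152-3p, so the sign for miR-148b-3p and miR-152-3p depends on that library. The sign of miR-148a-3p changed too, to 0.25 without normal glucose replicate 2, 0.13 without mannitol replicate 1 and 0.042 without mannitol replicate 3. For miR-148b-3p the value was also below 0 without normal glucose replicate 1 (−0.0074).

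The 3 comparisons share libraries with each other and are not independent. The family's median log2 difference was 0.26, 0.22 and 0.09 in the order given, beside −0.04, −0.04 and 0.01 over all miRNAs tested. The intervals above hold the differences that stay compatible with the data given the spread between libraries. They are not limits of detection. miR-148a-3p and miR-148b-3p had like standard errors although miR-148a-3p had at least 9.99 times the counts in every library. As ratios of high to normal glucose, the intervals reach from 0.721 to 1.77 for miR-148a-3p, from 0.773 to 2.08 for miR-152-3p and from 0.849 to 2.20 for miR-148b-3p. Fewer vesicles from one source and less of a miRNA per vesicle cannot be told apart in such bulk libraries.

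**Figure D3:**
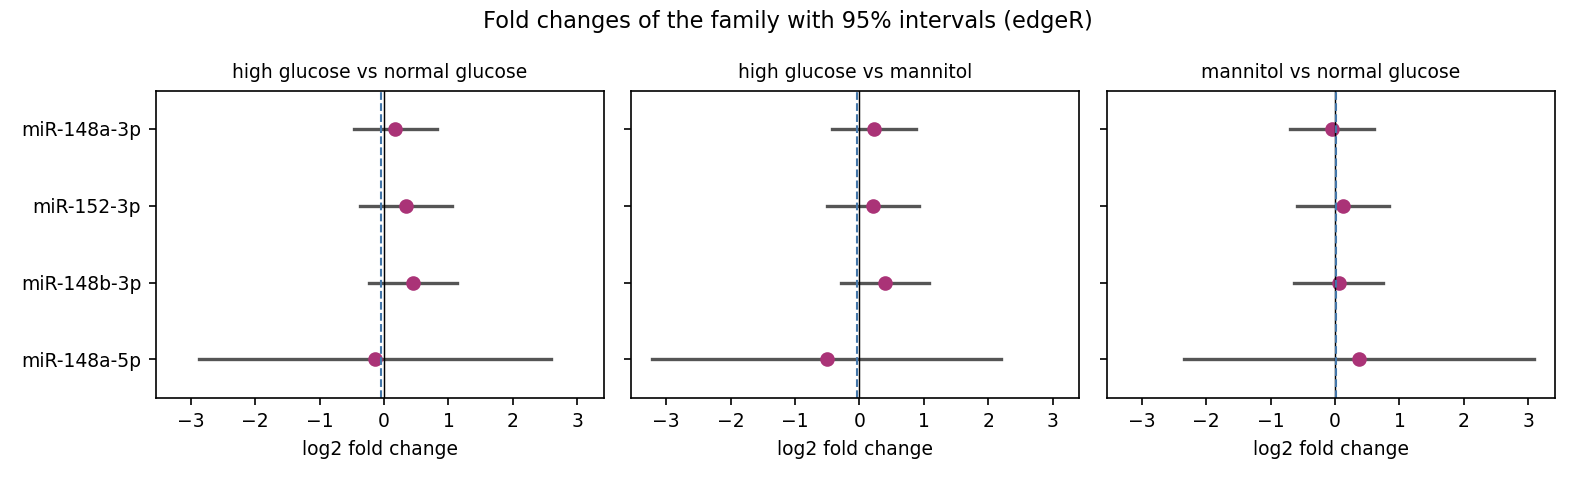
Log2 fold change of each member (points, x axis) with its 95% interval (lines) in the 3 comparisons, from edgeR on all 361 miRNAs. The solid line marks 0 and the dashed line the median of all miRNAs tested. Every interval spans 0, and those of miR-148a-5p are several times wider than those of the 3p members.

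The scale of the libraries matters for direction. With TMM scaling the median log2 difference of all miRNAs tested was −0.04, −0.04 and 0.01 in the 3 comparisons. The authors' own normalized values divide by a library constant instead. Under it the median was −0.12 between high and normal glucose, −0.59 between high glucose and mannitol and 0.50 between mannitol and normal glucose. On that scale the 3p members were lower in high glucose than in mannitol, at −0.30 for miR-148a-3p, −0.05 for miR-148b-3p and −0.25 for miR-152-3p. Relative to the median of all miRNAs they were higher, by 0.29, 0.54 and 0.35, so the sign depends on the scale shared by all miRNAs. The same constant made mannitol against normal glucose the comparison with the largest values, 0.50, 0.52 and 0.54 for the same members, beside 0.20, 0.47 and 0.29 for high against normal glucose.

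Across the libraries, miR-148b-3p and miR-152-3p varied together. On log2(TMM-scaled CPM + 1), Pearson's r was 0.91 (exact permutation p = 0.000923, adjusted 0.00277 over 3 relations) and Spearman's rho 0.92 (exact p = 0.00131, adjusted 0.00394), n = 9. The permutations, here and for the other correlations, moved all libraries freely, so p takes no account of treatment group or replicate number. Taken as deviations from group means, r was 0.92, and without the pair of libraries farthest from the median, high glucose replicates 2 and 3, it was 0.94. On unscaled CPM r was 0.85 (exact permutation p = 0.00401). Mannitol replicate 2 and high glucose replicates 2 and 3 stand above the other libraries in miR-148b-3p, and among the remaining 6 r was 0.79 (exact permutation p = 0.0597), so the relation rests in part on those 3 libraries, which were set apart after their values were seen.

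miR-148a-3p followed them less closely. Its r was 0.70 with miR-148b-3p (exact permutation p = 0.0399, adjusted 0.0599; rho 0.70, p = 0.0433, adjusted 0.0433) and 0.53 without mannitol replicate 1 and normal glucose replicate 1, the libraries farthest from its median. With miR-152-3p r was 0.62 (exact permutation p = 0.0767, adjusted 0.0767; rho 0.72, p = 0.0369, adjusted 0.0433) and 0.65 without the same 2. On unscaled CPM these fell to 0.45 and 0.34, so the relation of miR-148a-3p to the others depends on the scaling. Within groups r was 0.65 and 0.57. Whether r differed between the pairs was not tested.

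**Figure D4:**
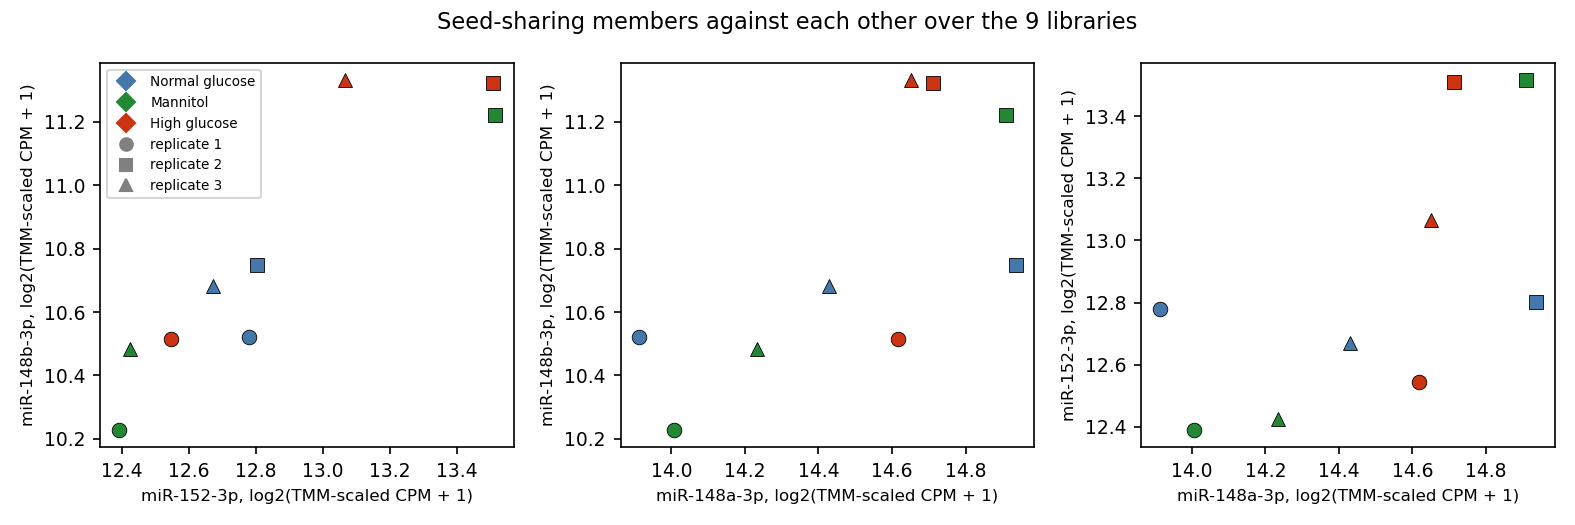
Levels of the 3p members against each other over the 9 libraries, on log2(TMM-scaled CPM + 1) axes, coloured by treatment and shaped by replicate. miR-148b-3p against miR-152-3p (left, r = 0.91) rises most steadily, with mannitol replicate 2 and high glucose replicates 2 and 3 at the upper right. The other panels, with miR-148a-3p on the x axis, scatter more (r = 0.70 and 0.62).

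As a description of likeness, each member's r was taken with every miRNA listed in all 9 libraries, which share library and scaling. The median r was 0.06 for miR-148b-3p and 0.06 for miR-152-3p, and 16 and 20 of 259 miRNAs had an r above 0.9 with them. The most alike for miR-148b-3p were miR-344-3p, miR-362-3p and miR-200a-3p (r = 0.98, 0.98 and 0.97), with miR-152-3p at place 14. For miR-152-3p they were miR-34c-5p, miR-378b and miR-106b-5p (r = 0.98, 0.96 and 0.96), with miR-148b-3p at place 18. For miR-148a-3p they were miR-379-5p, miR-335-5p and let-7g-5p (r = 0.90, 0.88 and 0.87), while its relatives miR-148b-3p and miR-152-3p took places 27 and 42 of 259. miR-148a-5p was most like miR-494-3p, miR-181c-3p and miR-199a-3p (r = 0.83, 0.83 and 0.80). Its r with its own 3p arm was 0.05, at place 140 of 260, at counts where 1 library is listed at 0.

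Other miRNAs reported to lower DNA methyltransferases, the role the family is best known for, were also not called. Of 13, 11 were tested: 7 were on the higher and 4 on the lower side of 0 in high against normal glucose (median log2 difference 0.24), 10 and 1 against mannitol (0.44), and 3 and 8 in mannitol against normal glucose (−0.12), with 0 called in each. The most abundant were miR-21a-5p, a widely expressed miRNA, with 0.39 ± 0.35 in high against normal glucose and 0.51 ± 0.35 against mannitol, and miR-101a-3p with 0.87 ± 0.42 and 0.67 ± 0.42 (SE). Their adjusted p by edgeR was 0.995 against normal glucose, and 0.723 and 0.710 against mannitol. All miRNAs tested split into 168 higher and 193 lower in both comparisons.

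Of 14 other miRNAs reported to control the LDL receptor or ABCA1, 11 were tested and 0 called. On the higher and lower side of 0 were 8 and 3 in high against normal glucose (median log2 difference 0.22), 9 and 2 against mannitol (0.24), and 5 and 6 in mannitol against normal glucose (−0.08). miR-27b-3p, the most abundant, had 0.50 ± 0.29 in high against normal glucose and 0.29 ± 0.29 against mannitol (SE). miR-122-5p, the main miRNA of liver cells, had −0.29 ± 0.36 and −0.20 ± 0.36, and miR-33-5p, which is cut from an intron of a cholesterol regulator, was listed at 0 in all groups.

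Markers of other cell types were present in these vesicle libraries. Of 9 blood, immune and liver miRNAs 8 were listed, with sums of 21296 to 38946 CPM in normal glucose, 19134 to 44102 in mannitol and 16480 to 29940 in high glucose. In that list miR-142a-3p was at 0 throughout, and miR-122-5p had 9508 to 22511 CPM. Of 4 tubule miRNAs 3 were listed, and they summed to 2286 to 3483, 2348 to 3211 and 3323 to 5008 CPM in that order, with miR-204-5p at 0 throughout. The 5 mesenchymal miRNAs summed to 1122 to 3428, 1355 to 2071 and 1606 to 2096 CPM, and the 2 endothelial ones to 229 to 825, 308 to 344 and 276 to 678 CPM. The 3 muscle miRNAs summed to 1666 to 3029, 1368 to 5994 and 1401 to 1761 CPM. None of these lists had a called miRNA in any comparison, except that the muscle miRNA miR-1a-3p was called in both comparisons with mannitol when no filter on low counts was used. Their part in the members' levels was not tested.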

How the data were processed

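Small RNA of extracellular vesicles was sequenced in 9 libraries, 3 in each of 3 groups taken from the treatment labels. Replicate numbers come from the titles; the unnumbered title of every group was assumed to be replicate 1. The submitters' processing notes name bcl2fastq, BWA and mm10, without versions or settings. Per the file headers, the authors deposited raw read counts per mature miRNA and a normalized value (RPM); by the values, each library's RPM is its counts scaled by 1 library constant, and what that constant counts is not stated. Counts were used for all tests and, divided by the total miRNA counts, for CPM.

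Differences were tested in edgeR 4.0.16 (R 4.3.3; filterByExpr, TMM scaling, robust quasi-likelihood fit of all 9 libraries, Benjamini-Hochberg adjustment, threshold 0.05), after the script was tested on simulated data. Ratios and correlations used exact permutation tests (numpy 2.4.6, scipy 1.17.1). Alternatives were RLE scaling, no filter, DESeq2 1.42.0, limma-voom 3.58.1, the authors' constant, a replicate block, listed zeros set to 9 reads, only the groups compared, and leaving out each library; for correlations, unscaled CPM, the authors' values and leaving out 3 libraries, and for the miR-148a arm ratio 9 reads in place of the listed 0, were chosen after seeing the data. Replicate pairs within groups differed well beyond sampling noise (chi-square per degree of freedom 88.1 to 765 over 9 pairs), so no library was counted as a duplicate.

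The text names the 4 members, the other arms of their hairpins, the 3 miRNAs most alike in pattern to each member, and from each list the 2 most abundant miRNAs or a few singled out after their values were seen. Members and lists (methyltransferase-lowering, LDL receptor and ABCA1, miR-30, blood, immune and liver, tubule, mesenchymal, endothelial, muscle) were chosen with earlier results of these data known.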

Additional observations from a re-analysis of the deposited data

How the results depend on the processing

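No member passed the threshold under any of the 17 alternatives in each comparison. With the authors' library constant the log2 difference changed sign between high glucose and mannitol for miR-148a-3p (−0.30), miR-148b-3p (−0.051) and miR-152-3p (−0.25), between high and normal glucose for miR-148a-5p (0.090) and between mannitol and normal glucose for miR-148a-3p (0.50). Between mannitol and normal glucose miR-148b-3p was −0.0068 with limma-voom. With listed zeros set to 9 reads, miR-148a-5p was 0.38 in high against normal glucose and its 3p to 5p ratio −0.062. Leaving out 1 library gave, for high against normal glucose, −0.044 to 0.43 for miR-148a-3p and 0.32 to 0.63 for miR-148b-3p. In the same comparison it gave 0.11 to 0.50 for miR-152-3p and −0.98 to 0.39 for miR-148a-5p. For high glucose against mannitol it gave 0.049 to 0.56 for miR-148a-3p and 0.21 to 0.77 for miR-148b-3p. There miR-152-3p had −0.039 to 0.71 and miR-148a-5p −1.35 to 0.0074. For mannitol against normal glucose it gave −0.29 to 0.25 for miR-148a-3p, −0.22 to 0.25 for miR-148b-3p and −0.27 to 0.32 for miR-152-3p. The ratio of miR-148a-3p to miR-148b-3p ranged from −0.42 to 0.033, −0.39 to 0.0052 and −0.23 to 0.17 in these comparisons, its ratio to miR-152-3p from −0.33 to 0.17, −0.21 to 0.22 and −0.34 to 0.16, and its ratio to miR-148a-5p from −0.11 to 1.82 in the first.

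The count of all miRNAs called was 0 in each comparison, 2, 3 and 1 without the filter on low counts (more miRNAs tested), and for high glucose against mannitol 1 with DESeq2 and 0 to 1 when 1 library was left out, the 1 being without mannitol replicate 2. Beside the 0, 15, 26 and 7 miRNAs had an unadjusted p under 0.05 with DESeq2. The cause of these changes was not tested.

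The labels do not say that a replicate number marks a shared culture, batch or day, and the number 1 was assumed for the unnumbered title of each group. Deviations from group means correlated at 0.044 to 0.68 in the 9 same-numbered pairs, above 0.1 in 7 of them, against −0.71 to 0.34 in pairs with different numbers. Of 18 best matches in another group 14 had the same number, a hint from the data of structure shared by number. Since the labels give no batch and 2 pairs were not above 0.1, the main fit did not treat the libraries as paired. Its spread thus holds any structure shared by number. With a replicate block 0 miRNAs were called in each comparison, and miR-148b-3p between mannitol and normal glucose was −0.0044. In the order of comparisons above, miRNAs with an unadjusted edgeR p under 0.05 rose from 10, 19 and 5 to 19, 52 and 17 of 361, no member among them. For high against normal glucose the standard errors fell from 0.30 to 0.24 for miR-148a-3p, 0.32 to 0.26 for miR-148b-3p and 0.33 to 0.26 for miR-152-3p. On the authors' normalized values r between miR-148a-3p and miR-152-3p was 0.80 (exact permutation p = 0.0115). The intervals of miR-148a-5p spanned several log2 units, at 11 to 44 counts in 8 libraries and a listed 0 in high glucose replicate 1. With listed zeros set to 9 reads, its standard error fell from 1.28 to 0.45 in high against normal glucose. It fell from 1.27 to 0.43 in high glucose against mannitol and from 1.27 to 0.44 in mannitol against normal glucose.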
